A study of Mus musculus with 6 samples.

Results

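The genes described here are 43 interferon response and antigen presentation genes, chosen by name from the 55450 genes counted in bulk RNA-Seq libraries of mouse hepatocytes and matched through the gene identifiers of GENCODE release M21. Male C57BL/6 mice were the source of the hepatocytes, obtained by 2-step collagenase perfusion, which flushes and digests the liver so that hepatocytes can be separated from its other cells. One group of 3 libraries came from undamaged liver (0hr), and one group of 3 came from liver taken 48hr after partial hepatectomy (PHx), an operation in which most liver lobes are resected. Mice of both groups were on a normal diet and, per the labels, 10 to 12 weeks old, while the study's methods give a slightly younger age. The libraries at 0 h carry the PHx protocol label with a time of 0 and, per the study, represent healthy mice rather than sham-operated ones, so surgery and regeneration cannot be told apart in this comparison. The study describes each library as 1 hepatocyte preparation.

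Each library held between 31419443 and 36346220 reads counted on genes. A count of 3, taken as the floor of a library, corresponded to 0.0840 to 0.102 CPM (gene counts scaled to a common library total and by edgeR's TMM factors), and it covers counting error only because the reads carry no molecular identifiers. All 43 genes passed the filter of 10 counts in any 3 of the 6 libraries and were tested, and 42 of them reached 10 counts in every library. The exception was Mx1, which had 5 counts in 1 of the libraries at 48 h. The 8 hepatocyte markers, which include albumin (Alb), transthyretin (Ttr) and Cps1, summed to between 83297 and 100916 CPM at 0 h and between 48124 and 58685 CPM at 48 h, so the labelled cell type carried its defining transcripts at both time points.

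Interferons are secreted proteins that warn cells of viral infection. Type I interferons bind the receptor chains Ifnar1 and Ifnar2, and the kinases attached to these chains activate STAT proteins such as Stat2, which join Irf9 and bind interferon-stimulated response elements (ISREs) in the promoters of antiviral genes. Interferon gamma acts through Ifngr1 and Ifngr2 and a different element, the gamma-activated site (GAS), and raises class I antigen presentation, in which peptides from the cytosol are pumped into the endoplasmic reticulum by Tap1 and Tap2 and displayed on heavy chains such as H2-K1 paired with B2m. Healthy hepatocytes are known for low surface levels of class I molecules, and the liver for a continuous exposure to microbial products from the gut.

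At 48 h after PHx, more of these genes were lower than in undamaged liver than were higher. The antiviral genes Rsad2, Ifit1, Ifit3 and Mx1 fell 3-fold or more, the class I heavy chain H2-K1 fell 2.16-fold and its partner B2m fell 1.77-fold. The nucleic acid sensor Zbp1 rose 2.6-fold and the chemokine Cxcl10 rose 1.63-fold. In edgeR's quasi-likelihood test, 19 of the 43 genes were lower and 2 were higher at an adjusted p under 0.05. Of all 17037 genes tested, 19.3% were lower and 21.4% were higher by the same rule, or 40.7% in either direction. The median log2 fold change (48 h minus 0 h) was -0.44 over the 43 genes and -0.00 over all genes tested, and 33 of the 43 fitted values lay below 0, against 50.1% of all genes tested. In 22 genes every library at 48 h lay below every library at 0 h, and in 3 genes above, beside 25% and 27.8% of all genes tested.

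The number of calls depends on the scaling, since the libraries at 48 h had normalization factors of 1.02 to 1.11 and those at 0 h of 0.913 to 0.950. With library size only, the median of all genes shifted by 0.20 on the log2 scale, and 11 of the 43 genes were lower and 3 were higher. In that fit 12.4% of all genes tested were lower and 31.2% were higher, and the calls split into 5309 higher and 2108 lower genes, compared with 3638 higher and 3288 lower in the main fit. The median of the 43 genes stood 0.44 below the median of all genes with either scaling. A change of scaling shifts all genes by about the same amount, so this difference could not show a dependence on it. Without 48 h replicate 1 the difference was -0.33.

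**Figure D1:**
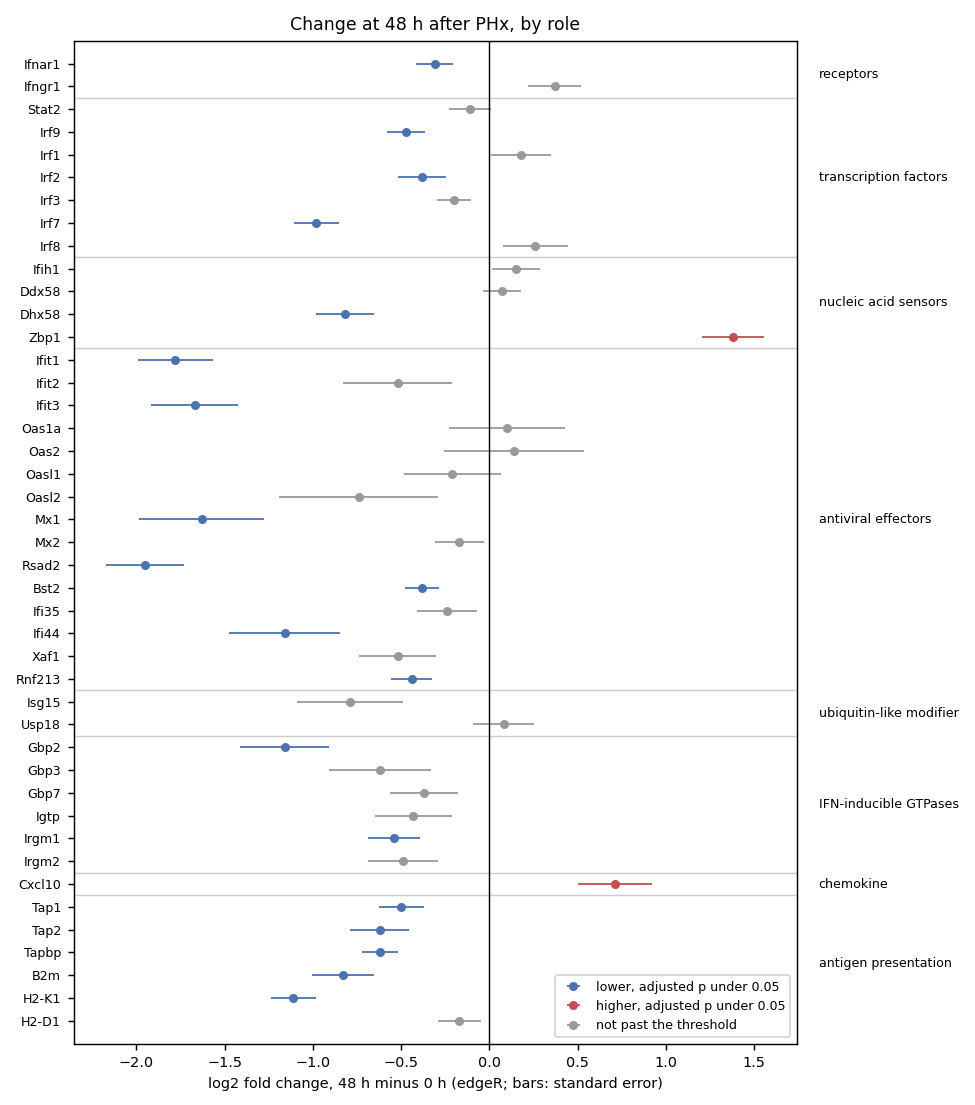
Log2 fold change (48 h minus 0 h) of the 43 genes, ordered by role, from edgeR's fit over all genes. Points are fitted values, bars are 1 standard error, and colours mark genes past an adjusted p of 0.05: the 19 lower genes lie left of 0, and Zbp1 (1.38) and Cxcl10 (0.71) lie right of it.

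Among the antiviral effectors, which block steps of viral replication inside the cell, 7 of 15 fell after PHx and none rose by edgeR's adjusted p under 0.05, beside 19.3% lower and 21.4% higher over all genes tested. No effector was higher at an unadjusted p under 0.05 either, and none was called higher by DESeq2 or limma-voom. Rsad2 encodes viperin, an enzyme that makes a chain-terminating ribonucleotide. It stood at 8.62, 12.9 and 12.7 CPM in the 3 libraries at 0 h and at 2.32, 3.69 and 2.83 CPM at 48 h. All 3 libraries at 48 h lay below the lowest one at 0 h, and the log2 fold change was -1.95 (standard error 0.219, edgeR adjusted p = 6.89e-05), the largest fall among the 43 genes. Ifit1, whose protein binds viral RNA that lacks the host's cap methylation, stood at 7.15, 5.77 and 6.93 CPM at 0 h and at 1.72, 2.49 and 1.57 CPM at 48 h. Its log2 fold change was -1.78 (standard error 0.213, edgeR adjusted p = 0.000109), with no overlap between the time points.

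Ifit3, of the same gene family, followed the same course, from 5.08, 3.87 and 4.61 CPM at 0 h to 1.01, 1.88 and 1.34 CPM at 48 h. The groups did not overlap, and the log2 fold change was -1.67 (standard error 0.248, edgeR adjusted p = 0.000425). Ifit1 and Ifit3 lie within one cluster of chromosome 19 (GRCm38) with Ifit2, which did not pass the threshold and stood at 1.76 ± 0.530 (SD, n = 3) CPM at 0 h and 1.23 ± 0.335 (SD, n = 3) CPM at 48 h. Ifit3 has a near-identical copy, Ifit3b, between which the counting could have divided reads. The summed level of Ifit1, Ifit2, Ifit3, Ifit3b and Ifit1bl1 lay between 13.1 and 14.9 CPM at 0 h and between 4.12 and 6.33 CPM at 48 h, so the fall was also present in this sum, which was chosen after the values were seen, with a log2 ratio of -1.54.

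Mx1, a gene of the dynamin-like GTPases, was scarce, at 24, 26 and 28 counts at 0 h and 5, 12 and 11 counts at 48 h. It stood at 0.818, 0.839 and 0.844 CPM at 0 h and at 0.149, 0.336 and 0.314 CPM at 48 h. The groups did not overlap, and the fitted log2 fold change was -1.63 (standard error 0.353, edgeR adjusted p = 0.00429). Mx2, its relative on the same chromosome, was more abundant, at 6.67 ± 0.210 (SD, n = 3) CPM at 0 h and 5.92 ± 0.134 (SD, n = 3) CPM at 48 h. Its log2 fold change of -0.17 did not pass the threshold (edgeR adjusted p = 0.346). Ifi44, an interferon-induced gene, stood at 0.818, 0.935 and 1.39 CPM at 0 h and at 0.416, 0.448 and 0.543 CPM at 48 h. Its log2 fold change of -1.16 (standard error 0.315, edgeR adjusted p = 0.0142) lost its call without 0 h replicate 3 (adjusted p = 0.0601) or 48 h replicate 2 (adjusted p = 0.0505).

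Bst2, or tetherin, holds budding virions on the cell surface and had the highest level per kilobase of exon among the effectors. It stood at 42.9, 39.5 and 43.1 CPM at 0 h and at 30.6, 32.4 and 33.3 CPM at 48 h, without overlap, and fell by 0.38 on the log2 scale (standard error 0.0965, edgeR adjusted p = 0.00964). Rnf213, a very large ubiquitin ligase, fell by 0.44 (edgeR adjusted p = 0.0117). Both calls were lost with library size only (adjusted p = 0.200 for Bst2 and 0.153 for Rnf213). Some members of the 2',5'-oligoadenylate synthetase family activate the ribonuclease RNase L. The 4 genes of this family among the 43 had no call in edgeR, DESeq2 or limma-voom and no unadjusted p under 0.05 in edgeR. Their log2 fold changes were 0.10 for Oas1a, 0.14 for Oas2, -0.21 for Oasl1 and -0.74 for Oasl2, with standard errors of 0.274 to 0.451. Oasl2 stood at 0.386 CPM in 48 h replicate 1 and at 2.21 and 1.92 CPM in the other libraries of that time point, so the spread at 48 h was wide. Oas1b, a further gene of this family that is not one of the 43 and was named after its values were seen, was lower, from 1.09, 1.32 and 1.15 CPM to 0.446, 0.588 and 0.715 CPM (log2 fold change -1.02, edgeR adjusted p = 0.0152). Oas3 was not called (log2 fold change -0.46, edgeR adjusted p = 0.3), and Oas1g, with 6 to 11 counts per library, was not tested. Xaf1, a proapoptotic interferon-stimulated gene, had a log2 fold change of -0.52 with an adjusted p of 0.0811 in edgeR, and 0.0297 without 48 h replicate 2. Ifi35, which binds the regulator Nmi, had a log2 fold change of -0.24 (edgeR adjusted p = 0.288), and an antisense gene covers 16.8% of its exon bases.

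**Figure D2:**
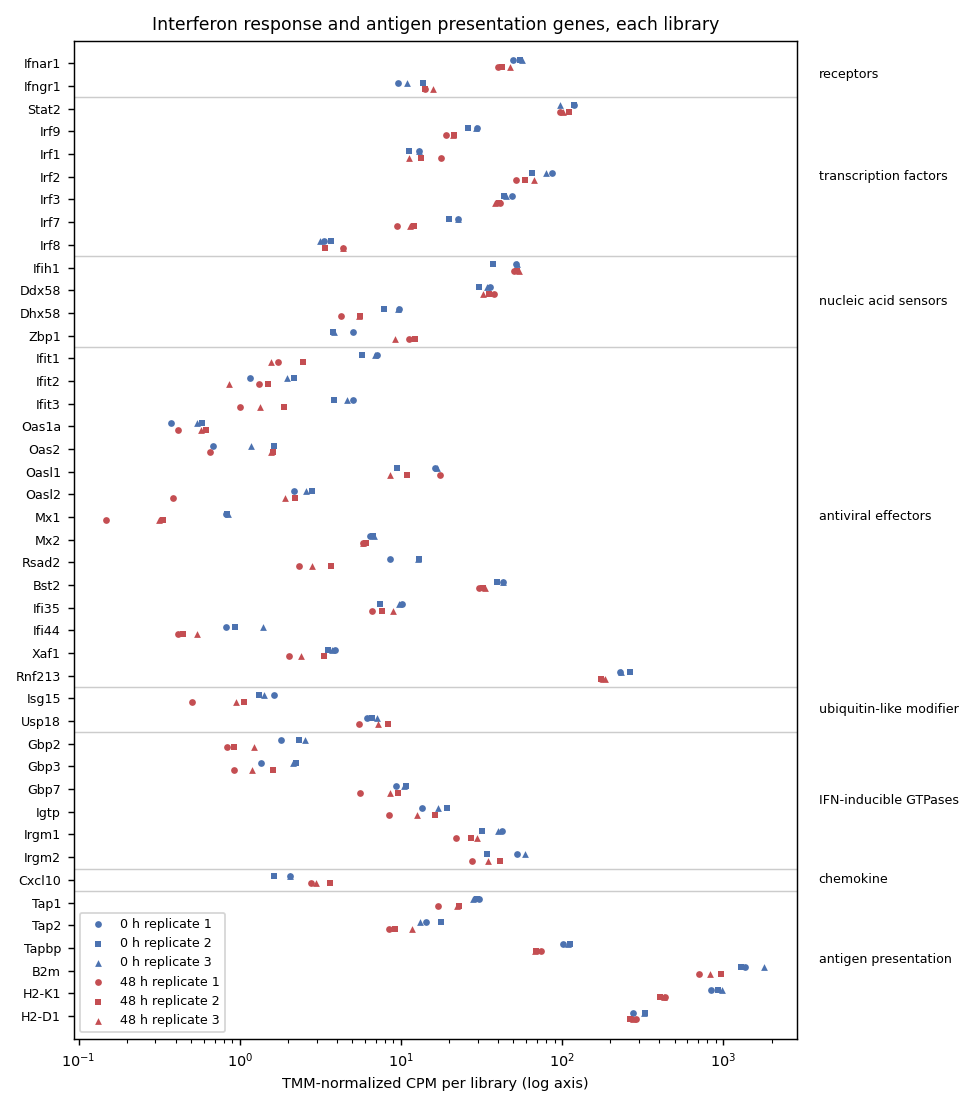
TMM-normalized CPM of the 43 genes in each of the 6 libraries, on a log axis, ordered by role. Symbols mark the replicates and colours the time points: Rsad2, Ifit1, Ifit3 and Mx1 show separate groups at 0 h and 48 h, while B2m and H2-K1 lie to the right of the other genes in all 6 libraries.

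Because the effectors are known ISRE targets, the promoters of the genes were searched for the core of that element. Promoters of 36 of the 43 genes were found in the RefSeq table of GRCm38.p6, each covering 250 bases before to 50 after a transcription start. The table held no promoter for Dhx58, Zbp1, Oas2, Mx1, Mx2, Usp18 and Tap2. The ISRE core, written here as GAAA, 2 bases of any kind and GAAA, and searched on both strands, occurred in 18 of the 36 genes, or 50%, and in 3.99% of all 27033 genes of the table (3.44% of its 32851 promoters). It occurred in 8 of 16 genes that were lower at 48 h (50%) and in 9 of 19 genes without a call (47.4%), so its share was similar in both. The GAS core TTCNNNGAA, which reads alike on both strands, occurred in 11 of the 36 genes (30.6%) and in 9.55% of all genes of the table (8.3% of promoters). It was found in 3 of the 16 lower genes and in 8 of the 19 without a call. These matches describe letters in a window and do not mark bound sites.

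The stretches around the ISRE cores of 6 genes are shown because they carry the same core letters in genes with different calls at 48 h. Rsad2, Ifit1, Ifit3 and B2m were called lower and Cxcl10 higher, while Isg15 did not pass the threshold, with a log2 fold change of -0.79 beside -0.83 for B2m. Each is written 5′ to 3′ on the strand of the gene, upstream of the start, with the ISRE cores in capitals. The windows lie at chr12:26456543-26456592 (minus strand) for Rsad2, chr19:34640765-34640833 (plus) for Ifit1, chr19:34583353-34583436 (plus) for Ifit3, chr2:122147528-122147577 (plus) for B2m, chr5:92349073-92349122 (minus) for Cxcl10 and chr4:156200855-156200916 (minus) for Isg15, all in GRCm38.p6.
Rsad2: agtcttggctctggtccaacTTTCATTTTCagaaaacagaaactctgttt
Ifit1: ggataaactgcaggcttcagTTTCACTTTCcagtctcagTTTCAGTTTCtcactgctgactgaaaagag
Ifit3: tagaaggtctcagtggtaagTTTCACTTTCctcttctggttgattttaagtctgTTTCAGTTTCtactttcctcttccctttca
B2m: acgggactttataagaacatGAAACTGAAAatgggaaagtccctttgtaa
Cxcl10: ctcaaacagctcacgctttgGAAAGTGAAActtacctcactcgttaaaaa
Isg15: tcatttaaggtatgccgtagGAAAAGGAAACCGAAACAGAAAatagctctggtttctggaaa
Ifit1 and Ifit3 each held 2 separate cores within these windows, and Isg15 held 3 cores that overlap into one run.

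Isg15 and Usp18 form a pair in which Isg15 is a ubiquitin-like protein joined to other proteins and Usp18 removes it and restrains signalling from the type I receptor. Isg15 stood at 1.46 ± 0.161 (SD, n = 3) CPM at 0 h and 0.837 ± 0.294 (SD, n = 3) CPM at 48 h, with no overlap between the groups. Its log2 fold change of -0.79 (standard error 0.302) had an adjusted p of 0.0588 in edgeR. It passed the threshold in 4 of 16 alternative fits, among them limma-voom (adjusted p = 0.0497). Usp18 had a log2 fold change of 0.08 (edgeR adjusted p = 0.758), and its libraries overlapped.

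Of the factors that carry the interferon signal to the nucleus, 3 of 7 fell after PHx and none rose by edgeR's adjusted p under 0.05, beside 19.3% lower and 21.4% higher over all genes tested, with none higher at an unadjusted p under 0.05 and none in DESeq2 or limma-voom. Irf7, which amplifies type I interferon production, showed the largest change of the 7. It stood at 22.6, 20 and 22.6 CPM at 0 h and at 9.48, 12.1 and 11.4 CPM at 48 h, without overlap. It fell 1.98-fold, with a log2 fold change of -0.98 (standard error 0.129, edgeR adjusted p = 0.000187). Irf9, the DNA-binding subunit that joins the STAT proteins, fell by 0.47 on the log2 scale (edgeR adjusted p = 0.00619, or 0.0967 with library size only). Irf2, a repressor of interferon-stimulated genes, fell by 0.38 (edgeR adjusted p = 0.0434), but its libraries overlapped and the call was lost without 0 h replicate 1, 0 h replicate 3, 48 h replicate 1 or 48 h replicate 2 (adjusted p = 0.103 to 0.144), with the replicate number as a block (0.0662) and with library size only (0.361).

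Stat2, a partner of Irf9, was the most abundant of these factors per kilobase. It stood at 119, 119 and 97.8 CPM at 0 h and at 97.6, 111 and 102 CPM at 48 h, and the groups overlapped (log2 fold change -0.11, standard error 0.118, edgeR adjusted p = 0.497). Irf3, the constitutive factor that responds to nucleic acid sensing, stood at 48.9, 44.0 and 44.9 CPM at 0 h and at 41.1, 40.6 and 38.2 CPM at 48 h. Its groups did not overlap, but its log2 fold change of -0.20 was not past the threshold (standard error 0.0964, edgeR adjusted p = 0.125). With upper quartile normalization the adjusted p of Irf3 was 0.0293. Irf1, an activator that interferon gamma induces, and Irf8, a factor of myeloid cells, had log2 fold changes of 0.18 and 0.26 and did not pass the threshold (edgeR adjusted p = 0.432 and 0.286).

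At the level of the receptors, the signalling chain of the type I receptor, Ifnar1, fell by 0.31 on the log2 scale (standard error 0.105, edgeR adjusted p = 0.0367), from 53.9 ± 3.60 (SD, n = 3) to 43.4 ± 3.64 (SD, n = 3) CPM, with no overlap. This call was lost without 0 h replicate 3, 48 h replicate 1 or 48 h replicate 2 (adjusted p = 0.108 to 0.123), with the replicate number as a block (0.0569), with a filter of 1 count in any library (0.0540) and with library size only (0.495). Its partner chain Ifnar2, which is not one of the 43 genes, had a log2 fold change of -0.41 (edgeR adjusted p = 0.01, or 0.145 with library size only). The ligand-binding chain for interferon gamma, Ifngr1, stood at 11.4 ± 2.17 (SD, n = 3) CPM at 0 h and 14.8 ± 0.938 (SD, n = 3) CPM at 48 h, higher without overlap but with an adjusted p of 0.0731 in edgeR. Ifngr1 passed the threshold without 0 h replicate 2 (adjusted p = 0.0115) and with library size only (0.0140).

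The 4 nucleic acid sensors did not move together. Zbp1, which recognizes left-handed double-stranded nucleic acid and can start necroptosis, stood at 5.04, 3.77 and 3.83 CPM at 0 h and at 11.3, 12.3 and 9.26 CPM at 48 h. Every library at 48 h was above every library at 0 h, and the log2 fold change was 1.38 (standard error 0.175, edgeR adjusted p = 0.000154). Dhx58 (LGP2), a helicase that modulates RIG-I and MDA5, moved the other way, from 9.74, 7.87 and 9.55 CPM to 4.28, 5.57 and 5.52 CPM, without overlap. The log2 fold change of Dhx58 was -0.82 (standard error 0.164, edgeR adjusted p = 0.00267). Ifih1 (MDA5) and Ddx58 (RIG-I), which sense long and short viral RNA, had overlapping libraries, with log2 fold changes of 0.15 and 0.07 (standard errors 0.136 and 0.107) that did not pass the threshold (edgeR adjusted p = 0.426 and 0.657). An antisense gene covers 4.31% of the exon bases of Dhx58, and whether the counting used strand is not given in the sources used here.

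Interferon-inducible GTPases, which attack the vacuoles of intracellular pathogens, all had fitted changes below 0, against 50.1% of all genes tested, and 2 of 6 were called lower, against 19.3% of all. Gbp2 stood at 1.81, 2.35 and 2.53 CPM at 0 h and at 0.832, 0.924 and 1.23 CPM at 48 h. The groups did not overlap, and Gbp2 fell by 1.16 on the log2 scale (standard error 0.254, edgeR adjusted p = 0.00439). Irgm1, a regulator that protects host membranes from the other GTPases, fell by 0.54 on the log2 scale (edgeR adjusted p = 0.0140). It lost its call without 0 h replicate 1 (adjusted p = 0.0534) and with library size only (0.117). Gbp3, Gbp7, Igtp and Irgm2 had log2 fold changes of -0.62, -0.37, -0.43 and -0.49 with edgeR adjusted p of 0.109, 0.153, 0.148 and 0.0746. Without 48 h replicate 2, Igtp and Irgm2 passed the threshold (adjusted p = 0.0428 and 0.0465), and Irgm2 passed it without 0 h replicate 2 (0.00789). With all libraries, Irgm2 passed it with upper quartile normalization (adjusted p = 0.0351) and with TMM from protein-coding genes (0.0426). It also passed with a filter of 1 count in any library (0.00592). Igtp passed the threshold with the replicate number as a block (adjusted p = 0.0347) and with the filter of 1 count in any library (0.0393). Igtp and Irgm2 overlap each other in the annotation, over 8.01% and 4.39% of their exon bases, and an annotated gene covers 11.3% of those of Gbp7 on its strand, so these counts are less certain.

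The chemokine Cxcl10, which attracts T cells through the receptor Cxcr3, was 1 of the 2 genes that rose. It stood at 2.04, 1.64 and 2.05 CPM at 0 h and at 2.76, 3.64 and 2.97 CPM at 48 h, without overlap. The log2 fold change of Cxcl10 was 0.71 (standard error 0.210, edgeR adjusted p = 0.0210), and the call was lost without 0 h replicate 2 (adjusted p = 0.0563) or 48 h replicate 2 (0.0937). Cxcl9, a nearby gene whose product binds the same receptor and which is not one of the 43, moved in the other direction, from 4.97, 6.84 and 6.81 CPM to 1.49, 1.23 and 0.858 CPM. Cxcl9 fell by 2.38 on the log2 scale (standard error 0.243, edgeR adjusted p = 3.58e-05), and its groups did not overlap. Cxcl11, a further ligand of this receptor, had a log2 fold change of 0.25 and was not called (edgeR adjusted p = 0.468).

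Of the 6 antigen presentation genes, 5 were lower at 48 h, beside 19.3% of all genes tested, and B2m, H2-K1 and H2-D1 had the highest levels per kilobase of the 43. H2-K1 (ENSMUSG00000061232.16; chromosome 17, 33996017 to 34000347, GRCm38), a classical class I heavy chain, stood at 843, 926 and 983 CPM at 0 h and at 438, 409 and 428 CPM at 48 h. The groups were far apart, with a log2 fold change of -1.11 (standard error 0.129, edgeR adjusted p = 8.78e-05). B2m (ENSMUSG00000060802.8; chromosome 2, 122147686 to 122153083), the light chain that class I molecules need to fold, stood at 1373, 1291 and 1795 CPM at 0 h and at 711, 970 and 834 CPM at 48 h. It fell without overlap, by 0.83 on the log2 scale (standard error 0.177, edgeR adjusted p = 0.00393).

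H2-D1, the other classical heavy chain measured, stood at 278, 330 and 321 CPM at 0 h and at 288, 263 and 276 CPM at 48 h. Its groups overlapped, and the log2 fold change of -0.17 (standard error 0.122) was not past the threshold (edgeR adjusted p = 0.298). The difference in response between H2-K1 and H2-D1 was not tested. Class I genes are close paralogs, and the count files list 0 reads as aligned to several places, so reads could have been lost or divided between them. The summed level of H2-K1 and H2-D1 was 1121, 1256 and 1305 CPM at 0 h and 727, 672 and 704 CPM at 48 h, and over 7 heavy chains (H2-K1, H2-D1, H2-Q4, H2-Q6, H2-Q7, H2-Q10 and H2-T23) it ranged from 3293 to 3489 CPM at 0 h and from 1881 to 2185 CPM at 48 h. Both sums, chosen after the values were seen, were lower in every library at 48 h, with log2 ratios of -0.81 and -0.77.

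The peptide pump and its docking protein were lower as well. Tapbp, or tapasin, which holds empty class I molecules at the pump, stood at 102, 113 and 109 CPM at 0 h and at 73.9, 68.9 and 68.4 CPM at 48 h (log2 fold change -0.62, standard error 0.101, edgeR adjusted p = 0.000794). Tap2 stood at 14.4, 17.8 and 13.1 CPM at 0 h and at 8.41, 9.27 and 11.8 CPM at 48 h (log2 fold change -0.62, standard error 0.167, edgeR adjusted p = 0.0135). Neither gene overlapped between the time points. The call of Tap2 was lost without 48 h replicate 1 (adjusted p = 0.0514), without 48 h replicate 2 (0.0547) and with library size only (0.0906). Tap1 fell by 0.50 on the log2 scale (edgeR adjusted p = 0.00980, or 0.124 with library size only). Antisense genes cover 24.9% of the exon bases of Tapbp and 18.5% of those of Tap2, which makes these counts less certain. The genes for H2-K1, Tapbp, Tap1, Tap2 and H2-D1 all lie in the major histocompatibility complex on chromosome 17, whereas B2m lies on chromosome 2.

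Per kilobase of exon, the level of the 43 genes at 0 h spanned 4 orders of magnitude, from 0.171 CPM per kilobase for Ifi44 to 1728 for B2m. B2m was followed by H2-K1 (312), H2-D1 (120), Bst2 (46.3), Tapbp (29.8) and Stat2 (18.9), and the same 6 genes led in the same order at 48 h. With the longest transcript in place of all exons as the length, these 6 again led in this order at 0 h. Lower in the order neighbours were close: Rnf213, Irf3 and Irgm2 stood at 14.3, 13.3 and 13.2 CPM per kilobase, and Rsad2, Ifit3 and Ifit1 at 2.63, 2.59 and 2.49, differences smaller than the SD of Rnf213 (1.24) and of Rsad2 (0.555).

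The libraries also differed within a time point. In 48 h replicate 1, 31 of the 43 genes (72.1%) had their lowest value among the 3 libraries at 48 h, compared with 34.4% of all genes tested. In 48 h replicates 2 and 3 this held for 3 and 9 genes. Within the 0 h group, replicates 1, 2 and 3 were lowest in 19, 20 and 4 genes, or 9.3% for replicate 3 beside 29.6% of all genes tested. The median difference of the 43 genes from their 0 h means, on the log2(CPM + 0.5) scale, was -0.56, -0.23 and -0.34 in 48 h replicates 1, 2 and 3, and 0.00, 0.01 and 0.02 for all genes tested. The 43 genes share their libraries, so these counts describe 3 libraries per time point. Without 48 h replicate 1, 16 of the 43 genes were lower and 2 higher, beside 16.3% and 16.4% of all genes in that fit, with a median log2 fold change of -0.35, and the calls of Tap2, Irf2 and Ifnar1 were lost.

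**Figure D3:**
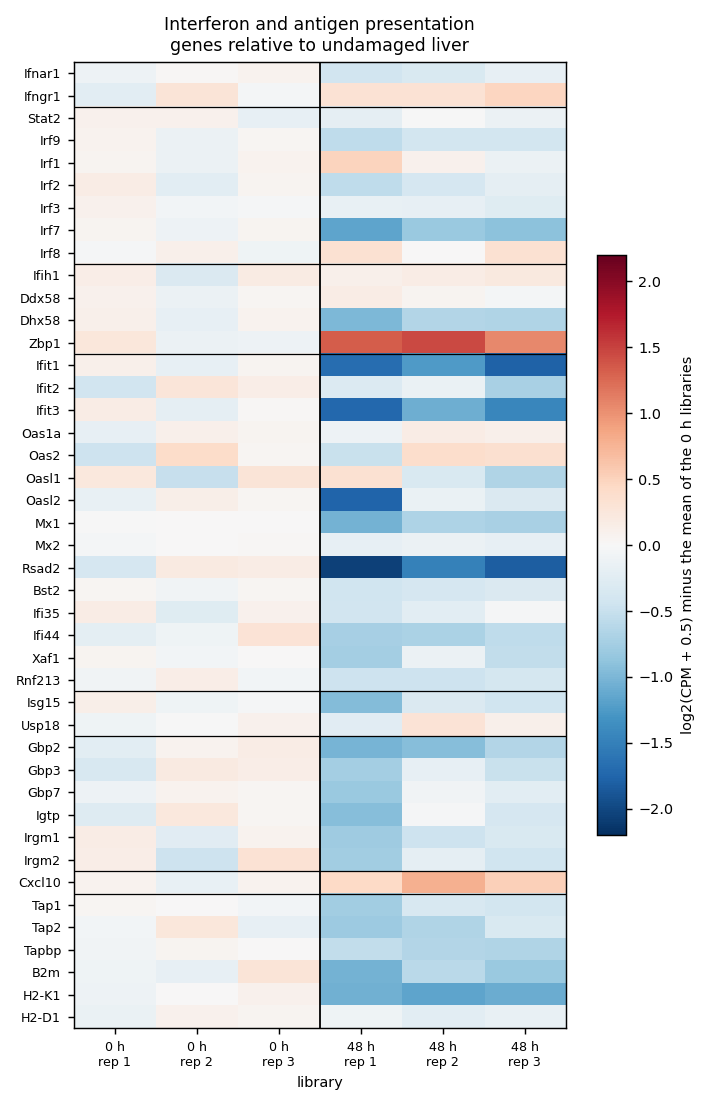
Log2(CPM + 0.5) of each of the 43 genes in each library, minus the mean of the 0 h libraries, with roles separated by lines. Blue marks lower and red higher values: the columns at 48 h are mostly blue, and replicate 1 has the median of -0.56.

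Beyond the 43 genes, a wider list of 102 genes of the interferon and antigen presentation pathways was counted. Of its 90 tested genes, 30 were lower (33.3%) and 4 were higher (4.44%), beside 19.3% and 21.4% of all genes tested, with a median log2 fold change of -0.24. With library size only, 16 were lower and 15 higher, beside 12.4% and 31.2% of all genes in that fit. The 4 genes that rose were Socs3, Pias1, Cgas and Ifitm2. Socs3, a feedback inhibitor of cytokine receptors that the interleukin 6 pathway induces, stood at 12.7, 9.84 and 10.8 CPM at 0 h and at 53.5, 40.1 and 36.6 CPM at 48 h (log2 fold change 1.97, edgeR adjusted p = 7.79e-06). Socs1, the inhibitor that interferon gamma induces, stayed under 1 CPM in every library (0.341 to 0.8 CPM, edgeR adjusted p = 0.542).

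Cgas, the sensor of cytosolic DNA, had 4, 8 and 6 counts at 0 h and 39, 55 and 52 counts at 48 h (log2 fold change 2.84, edgeR adjusted p = 0.000105). Because it passed the filter on counts through the libraries at 48 h alone, it could enter the test only as a higher gene. Ifitm2, a membrane protein that hinders viral entry, rose 2.07-fold (edgeR adjusted p = 0.00128), and a gene on the same strand overlaps 40.9% of its exon bases. Pias1, a SUMO ligase that restrains cytokine signalling, rose by a log2 fold change of 0.36 (edgeR adjusted p = 0.0190), a call that was lost without 0 h replicate 3 (0.0575) or 48 h replicate 2 (0.0847) and with the replicate number as a block (0.0519).

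Among the other interferon-stimulated genes of this list, 17 of 42 tested were lower (40.5%) and 1 was higher (2.38%), beside 19.3% and 21.4% of all genes tested. Ifit3b, the paralog of Ifit3, was lower (log2 fold change -2.48, edgeR adjusted p = 0.00100). It had 37, 35 and 44 counts at 0 h and 3, 14 and 6 counts at 48 h. Ifit3b passed the filter through the libraries at 0 h, so its entry into the test depended on the group where it was high. In the sensing branch, 1 of 10 genes was lower, 1 was higher and 8 were not called, with a median log2 fold change of 0.20. Mavs, the mitochondrial adaptor of RIG-I and MDA5, fell by 0.54 on the log2 scale (edgeR adjusted p = 0.00519). Irf5, a factor that induces inflammatory cytokines, fell by 0.84 (edgeR adjusted p = 0.000801), and an antisense gene covers 14.1% of its exon bases. In the class I pathway, 4 of 15 further genes were lower, or 26.7% beside 19.3% of all genes tested, and the median log2 fold change was -0.12. H2-Q10, a secreted class I molecule made by liver, stood at 2029, 1963 and 2017 CPM at 0 h and at 1342, 1124 and 1067 CPM at 48 h (edgeR adjusted p = 0.00200), and H2-T23, the mouse Qa-1 molecule, fell 1.94-fold (edgeR adjusted p = 0.000192). Nlrc5, the transactivator of class I genes, had a log2 fold change of -0.24 and an adjusted p of 0.0725 in edgeR, which was 0.0428 without 0 h replicate 2 and 0.0199 with upper quartile normalization.

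Transcripts of the interferons themselves were nearly absent. Of the 9 interferon genes listed, Ifnb1, Ifna1, Ifna2, Ifna4, Ifnl2, Ifnl3 and Ifne had 0 counts in all 6 libraries, which at the floor of 3 counts allows up to 0.102 CPM in a library, and Ifng had 1 count in 1 library at 0 h. The exception was Ifnk, a type I interferon known from skin, with 65, 94 and 74 counts at 0 h and 30, 42 and 53 counts at 48 h. It stood at 2.21, 3.03 and 2.23 CPM at 0 h and at 0.892, 1.18 and 1.51 CPM at 48 h, with a log2 fold change of -1.06 (standard error 0.261, edgeR adjusted p = 0.00864). Overlap of Ifnk with introns of other genes was not examined, which makes these counts less certain.

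Genes of class II presentation, which is mainly a function of immune and sinusoidal endothelial cells, had a median log2 fold change of -1.69 over 8 genes, of which 4 were lower (50%, beside 19.3% of all genes tested). Ctss, H2-DMa, Ciita and H2-DMb1 were not called, with log2 fold changes of -0.01, -0.30, -0.42 and -0.63. H2-Eb1 stood at 2.15, 2.55 and 3.53 CPM at 0 h and at 0.238, 0.252 and 0.286 CPM at 48 h (log2 fold change -3.39, standard error 0.306, edgeR adjusted p = 1.53e-05). H2-Eb1, 1 of the 4 lower genes, had 63, 79 and 117 counts at 0 h and 8, 9 and 10 counts at 48 h. It passed the filter through the libraries at 0 h, so its entry into the test depended on the group where it was high. H2-Aa fell by a log2 fold change of -3.17 (edgeR adjusted p = 1.12e-05). The sum of H2-Aa, H2-Ab1, H2-Eb1 and Cd74, the 4 lower genes singled out after their values were seen, was 26.6, 31.9 and 42.3 CPM at 0 h and 4.01, 4.62 and 3.83 CPM at 48 h. Over all 8 genes the sum lay between 32.1 and 51.7 CPM at 0 h and between 10.8 and 12.3 CPM at 48 h, with a log2 ratio of -1.87. These levels are small beside the 2641 to 3250 CPM that the 6 antigen presentation genes reached at 0 h.

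Markers of other liver cells were counted in the same libraries. In bulk libraries, fewer cells of a type and less RNA per cell cannot be told apart. All 9 endothelial markers were lower at 48 h, beside 19.3% of all genes tested, with a summed level of 226 to 353 CPM at 0 h and 165 to 180 CPM at 48 h and a log2 ratio of -0.84. The 11 Kupffer cell markers summed to 78.8 to 119 CPM at 0 h and 112 to 138 CPM at 48 h, and 2 of them were called higher (18.2%, beside 21.4% of all genes tested). These were Marco, from 0.75, 0.839 and 1.09 CPM to 7.55, 8.4 and 8.66 CPM, and Cd5l, from 14.8, 21.8 and 21.8 CPM to 26.4, 39.7 and 34.3 CPM, while the 9 others did not pass the threshold, with log2 fold changes from -0.34 (Adgre1) to 0.38 (Timd4). The median over the 11 markers was 0.12. The 7 stellate cell and fibroblast markers summed to 64.2 to 105 CPM at 0 h and 55.6 to 66.9 CPM at 48 h, with 1 higher and 1 lower (14.3% each, beside 21.4% and 19.3% of all genes tested). The 6 dendritic cell markers summed to 6.88 to 9.32 CPM at 0 h and 5.60 to 8.05 CPM at 48 h, and 4 of them had under 10 counts in every library. The 7 B and plasma cell markers summed to 1.75 to 2.18 CPM at 0 h and 1.01 to 2.04 CPM at 48 h. Of the 3 tested, Ighm was lower (log2 fold change -1.51, edgeR adjusted p = 0.00871). Jchain had 21, 19 and 14 counts at 0 h and 5, 5 and 3 counts at 48 h, and since it passed the filter through the libraries at 0 h alone, it could enter the test only as a lower gene. Igkc had a log2 fold change of 1.08 (edgeR adjusted p = 0.136).

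The 8 T and NK cell markers stayed at or under 0.290 CPM in sum, with Cd3d at 0 counts in all libraries and all 8 under 10 counts in every library. The 8 neutrophil markers summed to 0.0904 to 0.409 CPM at 0 h and 0.594 to 1.06 CPM at 48 h, with Ltf, Mpo and Retnlg at 0 counts. The 4 monocyte markers summed to 0.839 to 0.995 CPM at 0 h and 1.34 to 1.48 CPM at 48 h, and Plac8, the one tested, was higher (log2 fold change 0.79, edgeR adjusted p = 0.0281). The 5 cholangiocyte markers summed to 0.904 to 2.62 CPM at 0 h and 2.21 to 7.37 CPM at 48 h, nearly all of it from Spp1, the one tested (log2 fold change 1.51, edgeR adjusted p = 0.0212), whose libraries overlapped between the time points. Epcam, Krt19, Krt7 and Cftr had at most 4 counts in any library. Of the 8 hepatocyte markers, Alb, Apoa1, Ttr and Cyp2e1 were called lower (50%, beside 19.3% of all genes tested), while Trf, Cps1, Asgr1 and Tat had log2 fold changes of -0.01, 0.01, -0.17 and -0.37 and were not called. The part of these cell types in the changes of the 43 genes was not tested.

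**Figure D4:**
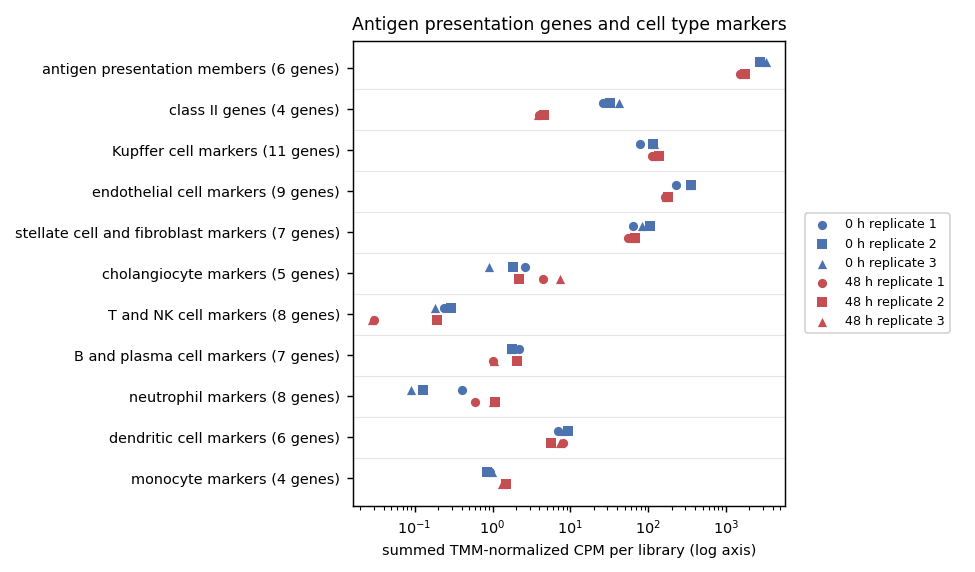
Summed TMM-normalized CPM per library, on a log axis, for the 6 antigen presentation genes among the 43, for 4 class II genes and for the marker lists of 9 cell types. The sum of the 4 class II genes, which were singled out after their values were seen, moved from 26.6 to 42.3 CPM at 0 h to at most 4.62 CPM at 48 h. Endothelial markers moved from 226 to 353 CPM to at most 180 CPM.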

How the data were processed

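Bulk RNA-Seq was measured in 6 libraries, 3 per time point, grouped by the sample titles. The authors deposited raw counts per gene, without normalization. The submitters' processing notes name FastQC 0.11.5, Trim Galore 0.6.4, STAR 2.6, HTSeq 0.12.4 and DESeq2, with the mm10 build. All gene identifiers are those of GENCODE M21 (GRCm38). Lines for reads outside genes (24.3% to 32.7% of reads) and ambiguous reads (4.27% to 5.29%) were left out.

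Counts were normalized by TMM and tested with edgeR 4.0.16 in R 4.3.3 (quasi-likelihood, time as the one term) over the 17037 genes that reached 10 counts in any 3 libraries, with Benjamini-Hochberg adjustment over all of them and calls at an adjusted p under 0.05. The tests were first tried on simulated counts. CPM are TMM-normalized, and levels per kilobase use the union of exons. Alternatives were DESeq2 1.42.0, limma-voom (limma 3.58.1), other normalizations and filters, the replicate number as a block, and leaving out each library.

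The members, lists and motifs were chosen with earlier results of these data known. Per-library values are given for called genes (at most 12 per direction, by log2 fold change) and for the 4 genes of highest level per kilobase (mean of all libraries) not among them. From each group of the wider list, at most 2 called genes per direction are named, with Nlrc5, Socs1 and the interferons, and some genes that this rule names are not reported here. Cgas was listed under its older symbol. Genes outside these rules were named after their values were seen.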

Additional observations from a re-analysis of the deposited data

How the results depend on the processing

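Of the 6 counts of calls (higher and lower genes among the 43, in the wider list and over all genes tested), library size only moved 4 by over 1.5 times: 11 of the 43 genes and 16 of the wider list were lower, 15 of the wider list were higher, and 2108 of all genes were lower. Fits without each library in turn gave 16 to 20 lower and 1 to 2 higher genes of the 43, 23 to 30 lower and 2 to 7 higher genes of the wider list, and 2540 to 3166 lower and 2649 to 3395 higher genes over all. Without 48 h replicate 2, 1 of the 43 genes was higher, since Cxcl10 lost its call, and 2 of the wider list were higher, while without 0 h replicate 2 there were 7. The cause was not tested. Under the replicate block, 18 of the 43 genes were lower and 2 higher, beside 16.9% and 19% of all genes, and 17 of the 19 lower calls were kept. Irf2 and Ifnar1 lost theirs and Igtp gained one. The labels do not say whether same-numbered libraries share more than a number. The correlations of their deviations from the group means were 0.0335, -0.0674 and -0.138, which cannot decide this without values for differently numbered libraries.

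Signs turned in genes without a call. With library size only, the log2 fold change was 0.03 for H2-D1, 0.0016 for Irf3, 0.03 for Mx2 and 0.09 for Stat2. With upper quartile normalization it was -0.02 for Ddx58 and -0.0065 for Usp18. Over the fits that left out 1 library, it ranged from -0.0059 (without 0 h replicate 2) to 0.12 for Ddx58, -0.01 (0 h replicate 2) to 0.22 for Ifih1, -0.02 (48 h replicate 1) to 0.32 for Irf1, -0.08 (0 h replicate 1) to 0.24 for Oas1a, -0.14 (0 h replicate 1) to 0.45 for Oas2, -0.55 to 0.0093 (48 h replicate 3) for Oasl1, -0.04 (48 h replicate 3) to 0.48 for Socs1 and -0.06 (48 h replicate 2) to 0.22 for Usp18.

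Rsad2, Ifit1, Ifit3, Gbp2, H2-K1, Irf7, B2m, Dhx58, Tapbp and Zbp1 stayed past the threshold in all 16 alternative fits, and Mx1 in the 15 that tested it. With 3 libraries per group, the standard error of the log2 fold change reached 0.451 (Oasl2) among the 43 genes, which limits what can be detected.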
